A study of Mus musculus and Homo sapiens with 4 samples.

Results

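Imprinted growth genes were examined in mouse embryonic fibroblasts (MEFs), which are connective tissue cells grown out of midgestation embryos. The 10 members were H19, Igf2, Igf2r, Meg3, Dlk1, Peg3, Mest, Cdkn1c, Grb10 and Plagl1, chosen by gene symbol. Each stood on 1 of the 23329 entries of the MEF tables, and all 10 were found. The series holds 4 RNA sequencing libraries, of which the 2 from human VCaP prostate cancer cells were not used here. The MEF libraries were 1 from wild-type (WT) and 1 from NEAT1 knockout (KO) embryos, taken at embryonic day E13.5. Both were of the C57BL/6 strain, were at passages 2 to 3, were grown with 10% fetal calf serum in a mixture of DMEM and Ham's F12, and gave poly-A RNA. The sources used here do not say how the knockout allele was made, nor how many embryos gave each culture. With 1 library per genotype there was no spread between replicates, so no test was made, and every difference below is one between those cultures that has no replicate check.

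Genomic imprinting marks a gene in the germ line of one parent by DNA methylation, so that in the offspring mainly the copy from the mother or mainly the copy from the father is transcribed. Many imprinted genes act on the growth of the embryo and placenta, with paternally expressed genes such as Igf2 tending to promote growth and maternally expressed genes such as Igf2r, Grb10 and Cdkn1c tending to restrain it. They lie in clusters in which a single methylated control region can govern several genes, among them long non-coding RNAs such as H19 and Meg3. NEAT1 is a nuclear long non-coding RNA on which paraspeckles, a kind of nuclear body, are built. The values below sum both parental copies and say nothing of which was transcribed.

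Levels are RPKM values as deposited, that is reads scaled by entry length and by library size. Differences are log2 ratios of KO over WT, computed after adding 1 RPKM to both values, which understates changes at low levels. The target itself separated the libraries: the Neat1 entry (chr19:5842302-5845478, mm10) stood at 29.5 RPKM in WT and 2.01 RPKM in KO MEFs, a log2 ratio of -3.34. All 10 fibroblast markers were present in both libraries, the lowest being Pdgfra at 4.18 RPKM in WT and 13.8 RPKM in KO MEFs. The libraries also differed in embryo sex, since Xist, the RNA that coats the inactive X chromosome, was at 28.6 RPKM in WT and 0.0500 RPKM in KO MEFs, and the Y-linked gene Eif2s3y was at 0 and 6.30 RPKM. No member is on a sex chromosome, and sex and genotype cannot be told apart in this design. Across all entries 228 lay above a log2 ratio of 1 (0.977%) and 78 below -1 (0.334%). For the 10888 expressed entries, meaning at least 1 RPKM in WT and in KO MEFs, the median was -0.06, and the central 95% ran from -0.70 to 0.80.

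The sequences first show the RNA processed from H19 and then the promoters of members that were lowest in KO relative to WT. H19 carries the hairpin of miR-675 inside its transcript. Its 2 mature arms, read from RefSeq (GRCm38.p6) and given 5′ to 3′ with the seed, bases 2 to 8, in capitals, differ in seed and are as follows.
miR-675-5p (chr7:142577112-142577133, minus strand): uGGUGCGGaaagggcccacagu
miR-675-3p (chr7:142577078-142577099, minus strand): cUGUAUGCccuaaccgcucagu

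Promoters of 300 bases, 250 before and 50 after a RefSeq start site, were found for 8 of the 10 members, with 15 start sites in all, and those of H19 and Cdkn1c were not printed. The 4 members that differed most in log2 ratio between the libraries are shown with CpG dinucleotides, the sites at which DNA is methylated, in capitals. Whether the CpGs of these windows carry an imprint was not measured. Where a gene had several start sites, the one at the outer end of its entry is printed.
Dlk1 (chr12:109452573-109452872, plus strand): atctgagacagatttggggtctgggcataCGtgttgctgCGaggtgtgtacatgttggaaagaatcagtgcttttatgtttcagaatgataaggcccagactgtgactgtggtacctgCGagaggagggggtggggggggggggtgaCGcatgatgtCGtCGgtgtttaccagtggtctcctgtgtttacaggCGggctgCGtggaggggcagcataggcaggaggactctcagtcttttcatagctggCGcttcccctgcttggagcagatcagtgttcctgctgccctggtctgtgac
Meg3 (chr12:109540746-109541045, plus strand): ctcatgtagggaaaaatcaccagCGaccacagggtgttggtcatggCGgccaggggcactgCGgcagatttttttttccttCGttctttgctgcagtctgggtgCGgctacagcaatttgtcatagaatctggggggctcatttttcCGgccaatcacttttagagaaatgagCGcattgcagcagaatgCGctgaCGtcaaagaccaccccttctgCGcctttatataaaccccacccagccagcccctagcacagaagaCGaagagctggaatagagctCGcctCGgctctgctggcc
Plagl1 (chr10:13090582-13090881, plus strand): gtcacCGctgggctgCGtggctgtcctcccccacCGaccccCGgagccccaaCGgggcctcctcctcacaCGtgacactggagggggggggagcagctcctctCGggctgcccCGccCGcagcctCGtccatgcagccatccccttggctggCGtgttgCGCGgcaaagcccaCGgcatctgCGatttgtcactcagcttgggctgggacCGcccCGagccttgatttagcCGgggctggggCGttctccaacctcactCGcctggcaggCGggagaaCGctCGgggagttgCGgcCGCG
Grb10 (chr11:12037371-12037670, minus strand): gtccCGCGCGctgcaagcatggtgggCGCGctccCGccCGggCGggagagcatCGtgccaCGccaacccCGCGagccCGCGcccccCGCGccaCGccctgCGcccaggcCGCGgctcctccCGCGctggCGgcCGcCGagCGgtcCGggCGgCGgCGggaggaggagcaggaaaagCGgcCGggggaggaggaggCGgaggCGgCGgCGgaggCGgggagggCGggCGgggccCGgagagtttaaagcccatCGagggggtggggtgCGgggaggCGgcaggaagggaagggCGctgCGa

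The 4 promoters differed in CpG content. Dlk1 held 9 CpGs, Meg3 13, Plagl1 26 and Grb10 45, against a median of 7 and quartiles of 3 and 20 over 32851 mouse promoters of the same length. The Grb10 window had more CpGs than 98.1% of those promoters and a GC content of 80.0%. TATAAA, the letters of a TATA box, was searched on both strands and occurred in 1 of the 15 member promoters, that of Meg3, with its first base at -25 from the start site; 13.6% of all promoters hold it. GGGGCCCC, which reads the same on both strands and is the core of the site bound by PLAGL1, was in 1 of the 15, that of Peg3, with its first base at -201, and in 1.08% of all promoters. Plagl1 encodes a member of the set itself, so the Peg3 promoter is given with those letters in capitals. A match is a run of letters and was not tested as a binding site.
Peg3 (chr7:6730370-6730669, minus strand): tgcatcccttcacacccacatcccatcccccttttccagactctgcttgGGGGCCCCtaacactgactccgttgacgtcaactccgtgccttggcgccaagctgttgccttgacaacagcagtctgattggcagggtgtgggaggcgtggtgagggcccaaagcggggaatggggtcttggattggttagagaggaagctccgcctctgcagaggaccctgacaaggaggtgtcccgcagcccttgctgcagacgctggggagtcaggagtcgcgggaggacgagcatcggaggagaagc

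Per length, H19 stood 267 times above Cdkn1c in WT and 143 times in KO MEFs, and the order of levels was led by the pair H19 and Igf2. H19 was the 24th most abundant of all 23329 entries in WT and the 45th in KO MEFs, and Igf2 the 88th and the 110th. Together they made up 86.5% of the summed RPKM of the members in WT and 87.0% in KO MEFs. The other 8 lay between 4.08 and 128 RPKM in WT and between 4.13 and 84.4 RPKM in KO MEFs. In WT the order by level was H19, Igf2, Grb10, Igf2r, Meg3, Plagl1, Dlk1, Mest, Peg3 and Cdkn1c. In KO MEFs Mest stood above Meg3, Plagl1 and Dlk1, and Cdkn1c above Dlk1 and Peg3. With 1 library each, whether neighbours in that order differ cannot be said.

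**Figure D1:**
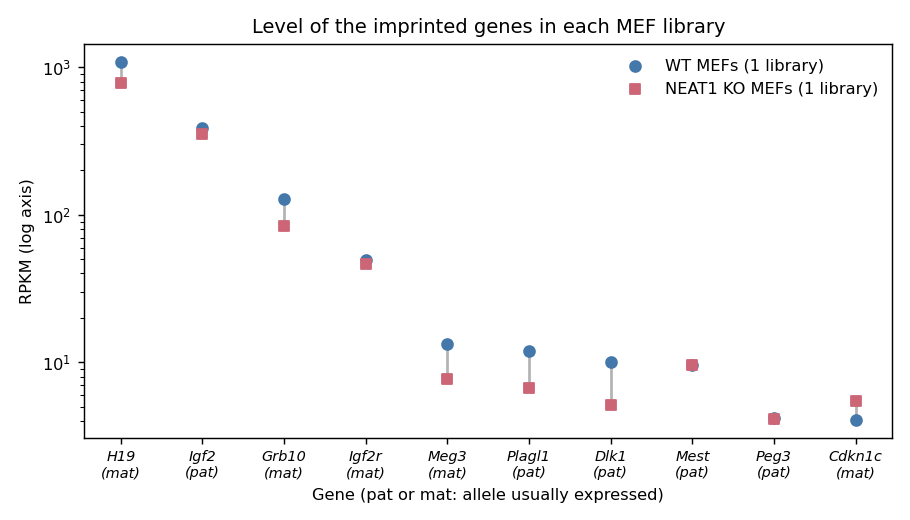
RPKM (log axis) of each imprinted gene, ordered by its WT level, with a circle for the WT library and a square for the NEAT1 KO library; pat and mat name the allele usually expressed. H19 and Igf2 lie above the rest in both libraries, and the gap between the symbols is wide for Meg3, Plagl1 and Dlk1 and not visible for Mest.

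No member passed a log2 ratio of 1 or -1, thresholds that 0.977% and 0.334% of all entries passed. Of the 10, 9 had a ratio below 0, as did 6628 of the 10888 expressed entries (60.9%), and the members' median was -0.31 beside -0.06 for those entries. At a threshold of 1.5-fold on the same scale, taken after the values were seen, 4 members were lower in KO MEFs and 0 higher. The background at that threshold is 4.20% of expressed entries lower and 3.92% higher. The 4 were Dlk1, Plagl1, Meg3 and Grb10, of which 2 are paternally and 2 maternally expressed. Grb10 lay close to that threshold and was not past it once the median ratio of expressed entries was set to 0. The summed level of the members was 1708 RPKM in WT and 1304 RPKM in KO MEFs, most of which difference was that of H19.

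**Figure D2:**
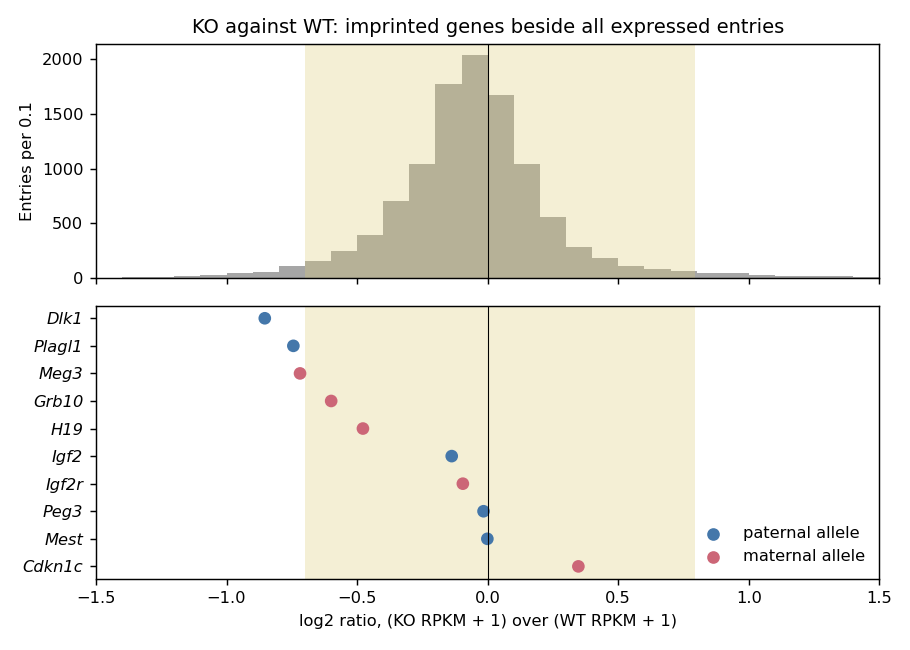
Upper panel, number of expressed entries (at least 1 RPKM in both libraries) per 0.1 of the log2 ratio of KO over WT, cut at 1.5 on either side; lower panel, the ratio of each imprinted gene, blue for paternally and red for maternally expressed genes. The shaded band is the central 95% of the expressed entries, -0.70 to 0.80; Dlk1, Plagl1 and Meg3 lie just below it and the other 7 inside it.

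Among the paternally expressed members, Dlk1 and Plagl1 were lower in KO MEFs while Igf2, Peg3 and Mest stood close to their WT levels. Dlk1 encodes a membrane protein with EGF-like repeats that holds back the differentiation of adipocyte precursors. Its entry (chr12:109452823-109463336) had 10.1 RPKM in WT and 5.12 RPKM in KO MEFs. The KO value was 50.9% of the WT value, and the log2 ratio of -0.85 was the lowest of the members. Plagl1 (chr10:13090788-13131695) encodes a zinc finger transcription factor that acts within the imprinted gene network. It had 11.9 RPKM in WT and 6.70 RPKM in KO MEFs, a log2 ratio of -0.74. Of the expressed entries, 1.12% had a lower ratio than Dlk1 and 2.02% a lower ratio than Plagl1.

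The other paternally expressed members held near their WT levels, with log2 ratios from -0.14 to -0.00. Igf2 (chr7:142650768-142661035), the fetal insulin-like growth factor, was at 388 RPKM in WT and 352 RPKM in KO MEFs, a log2 ratio of -0.14. Peg3 (chr7:6705960-6730419), a large zinc finger protein, was at 4.19 and 4.13 RPKM. Mest (chr6:30733506-30748466), an enzyme of the alpha/beta hydrolase fold, was at 9.57 and 9.56 RPKM. The ratios of Peg3, at -0.02, and of Mest, at -0.00, turned above 0 when the median ratio of expressed entries was set to 0 or the libraries were quantile normalized, so neither has a direction.

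Log2 ratios of the maternally expressed members ran from -0.72 for Meg3 to 0.35 for Cdkn1c. Meg3 (chr12:109540996-109571729), a long non-coding RNA, had 13.3 RPKM in WT and 7.72 RPKM in KO MEFs. Grb10 (chr11:11930499-12037420), an adaptor that binds insulin and IGF receptors and dampens their signal, had 128 RPKM in WT and 84.4 RPKM in KO MEFs, a log2 ratio of -0.60. H19 (chr7:142575532-142578146), the long non-coding RNA that shares its enhancers with Igf2, had 1089 RPKM in WT and 782 RPKM in KO MEFs, a log2 ratio of -0.48. All 3 were lower in KO MEFs, and in RPKM the H19 difference was the largest of the set.

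Igf2r and Cdkn1c did not follow them. Igf2r (chr17:12682406-12769706), the receptor that carries IGF2 to lysosomes for breakdown, had 49.3 RPKM in WT and 46.1 RPKM in KO MEFs, a log2 ratio of -0.10. Cdkn1c (chr7:143458339-143461050) encodes p57, an inhibitor of cyclin-dependent kinases, and had 4.08 RPKM in WT and 5.46 RPKM in KO MEFs. Its log2 ratio of 0.35 was the one ratio of the members above 0, and 92.4% of expressed entries lay below it.

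H19 and Igf2 lie 72.6 kb apart and are transcribed from opposite parental copies. The level of H19 per length was 2.81 times that of Igf2 in WT and 2.22 times in KO MEFs, because H19 differed more than its partner. The miR-675 hairpin shown above has an entry of its own (chr7:142577064-142577147) at 1115 RPKM in WT and 801 RPKM in KO MEFs. These values were 1.02 times those of H19 in both libraries. Since the hairpin lies within H19 and poly-A RNA was sequenced, they count the H19 transcript over those bases and are no measure of the mature miRNA. The hairpins inside Igf2 (miR-483) and Mest (miR-335) were at 0.167 and 0 RPKM in WT and at 0.103 and 0 RPKM in KO MEFs.

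Several members share bases with an antisense entry, and how the library kit treated strand was not stated for the MEFs, so the reads of such pairs cannot be told apart. Igf2as, at the 5′ end of Igf2, was at 2.70 RPKM in WT and 3.25 RPKM in KO MEFs. Airn, the long RNA whose transcription silences the paternal Igf2r copy, was at 0.936 and 0.801 RPKM. Peg3as was at 3.46 and 3.08 RPKM. Each was below the level of its partner in both libraries.

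Dlk1 and Meg3 lie in 1 imprinted domain on chromosome 12, in which Dlk1 is read from the paternal copy and Meg3, Rian and Mirg from the maternal copy. Both kinds were lower in KO MEFs. Rian, host of many small nucleolar RNAs, had 33.8 RPKM in WT and 19.2 RPKM in KO MEFs, a log2 ratio of -0.78. Mirg, host of a miRNA cluster, had 9.58 and 6.58 RPKM, a log2 ratio of -0.48. The level of Rian was 2.53 times that of Meg3 in WT and 2.49 times in KO MEFs, and the level of Dlk1 was 0.753 and 0.663 times that of Meg3. The paternally expressed Rtl1 was at 0.198 and 0.126 RPKM, too low to read.

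Among entries of at least 1 RPKM, the stretch from Dlk1 to Mirg had a lower median ratio than the entries beyond the domain's edges, Begain and Dio3. In the 297 kb from Dlk1 to the end of Mirg, 11 entries had at least 1 RPKM in either library, all 11 had a log2 ratio below 0, and their median was -0.78. These are not separate measurements, because 7 are entries of small RNAs, among them the 30-base AF357359 at -1.20 and the miRNA entries Mir410 at -1.10 and Mir377 at -1.07, and lie within or beside the long transcripts. Mir134, Mir485, Mir377 and Mir412 reached 1 RPKM in WT alone, so the filter favoured ratios below 0 for them. MiRNA entries of the stretch under 1 RPKM in both libraries went both ways, with more of them lower than higher. Mir496 was at 0 RPKM in WT and 0.492 RPKM in KO MEFs, and Mir493 at 0.470 and 0 RPKM. At the edges Begain stood at 1.90 RPKM in WT and 2.22 RPKM in KO MEFs, and Dio3, which encodes an enzyme that inactivates thyroid hormone, at 1.20 and 1.11 RPKM. Beyond them, the 13 entries in the 500 kb on either side ran from -0.44 to 0.14 with a median of -0.13. Of these 13, 11 lay below 0 and 0 was lower by 1.5-fold, beside 9 of the 11 from Dlk1 to Mirg. Across the 11463 entries that reached 1 RPKM in either library, 6973 lay below 0 and 566 were lower by 1.5-fold. At that share, 0 of 13 says little. Of the 57 miRNA entries between Dlk1 and Dio3, 27 were at 0 in both libraries. The window was chosen after the values were seen, and no test was made.

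**Figure D3:**
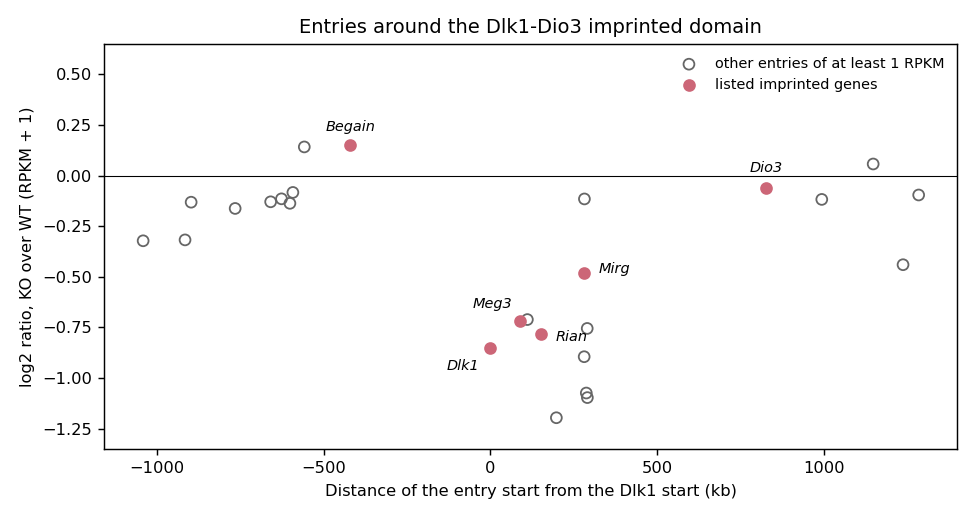
Log2 ratio of KO over WT for every entry of at least 1 RPKM in either library, against the distance of its start from the start of Dlk1 in kb; filled points are the listed imprinted genes and open points all other entries, small RNA entries included. The entries from Dlk1 to Mirg lie at -0.12 or lower, while the entries beyond Begain and Dio3 lie between -0.44 and 0.14, Begain at 0.15 and Dio3 at -0.06.

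Of the imprinted genes around H19, Igf2 and Cdkn1c on chromosome 7, 17 were listed and 8 reached 1 RPKM in either library. None of the 17 was past 1.5-fold in either direction, with ratios from -0.27 to 0.25. Of all 23329 entries, 593 were lower and 553 higher at that threshold, so 0 of 17 says little. Those under 1 RPKM in both libraries could hardly pass it, since 1 RPKM was added to each value. The most abundant of them, Cd81, a membrane tetraspanin, was at 326 RPKM in WT and 354 RPKM in KO MEFs. Nap1l4, a histone chaperone, was at 65.7 and 60.9 RPKM, Osbpl5, a lipid transfer protein, at 41.4 and 42.1 RPKM, and Tssc4 at 40.2 and 37.0 RPKM. Tnfrsf22, Tnfrsf23 and Slc22a18 had log2 ratios of -0.24, 0.15 and 0.20. Kcnq1ot1, the long RNA that silences Cdkn1c and its neighbours on the paternal copy, was at 0.0711 and 0.0414 RPKM.

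Near Mest, Copg2, a coat protein subunit, was at 6.21 RPKM in WT and 5.60 RPKM in KO MEFs. Within 500 kb of Plagl1, which has no listed imprinted neighbour, 9 further entries had ratios from -0.32 for Phactr2 to 0.78 for Stx11, with a median of 0.04. Near Grb10 the single further entry above 1 RPKM was Fignl1, a gene of DNA repair, at 4.15 RPKM in WT and 1.97 RPKM in KO MEFs. Other entries within 500 kb of the Peg3 domain ran from -0.13 to 0.17, those around Mest from -0.45 to -0.00, and those around Igf2r from -0.34 to 1.30, the last being Sod2, a mitochondrial superoxide dismutase.

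Across imprinted genes outside the member set, most stood near their WT levels. Of 70 listed, 69 were found and 38 reached 1 RPKM in either library. Those 38 had a median of -0.11, with 24 below 0 and 14 above. Past a log2 ratio of 1 there was 1, Dcn, and below -1 there were 0. Over all 11463 entries that reached 1 RPKM in either library, the median was -0.06, with 6973 below 0 and 4490 above. Of these entries, 228 lay above 1 and 78 below -1. Dcn encodes the matrix proteoglycan decorin, is imprinted in the placenta, and was at 19.8 RPKM in WT and 64.0 RPKM in KO MEFs, a log2 ratio of 1.64. Gnas, the stimulatory G protein subunit, was at 150 and 144 RPKM, and Ndn, a MAGE family protein, at 86.7 and 79.1 RPKM. At 1.5-fold, Rian and Ube3a, a ubiquitin ligase, were lower (Ube3a at 8.12 and 4.44 RPKM), and Htr2a, a serotonin receptor, was higher with Dcn (Htr2a at 10.2 and 17.9 RPKM). Of all 11463 entries that reached 1 RPKM in either library, 566 were lower and 531 higher at that threshold. Genes named at that threshold were picked after their values were seen.

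**Figure D4:**
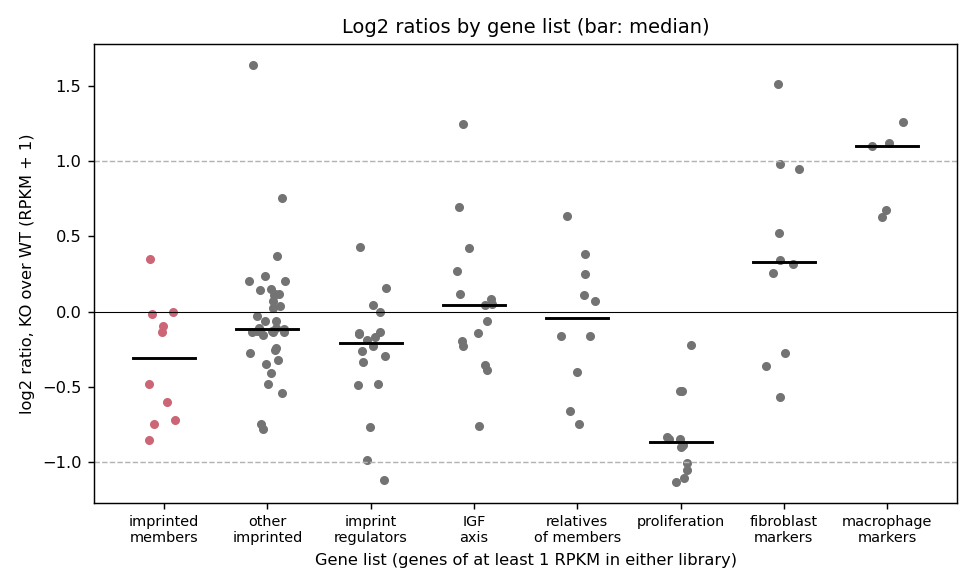
Log2 ratio of KO over WT for each gene of at least 1 RPKM in either library, by gene list, with a bar at the list's median and dashed lines at 1 and -1. The imprinted members lie between -0.85 and 0.35; every proliferation gene lies below 0 and every macrophage marker shown above it.

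Of the listed factors of DNA methylation and imprinting, most were expressed in both libraries. Dnmt3l, Dnmt3b, Tet1 and Dppa3 were under 1 RPKM in both. Of 22 listed, 18 reached 1 RPKM in either library, 1 lay below -1 and 0 above 1, and the median of the 18 was -0.21. Over all 11463 entries that reached 1 RPKM in either library, 78 lay below -1 and 228 above 1, with a median of -0.06. Hells, a chromatin remodeller needed for DNA methylation, was the one factor below -1, at 3.36 RPKM in WT and 1.01 RPKM in KO MEFs. Ezh2, the Polycomb methyltransferase, had 7.81 and 3.45 RPKM, and Uhrf1, which brings DNMT1 to replicating DNA, 15.4 and 8.63 RPKM. Dnmt1, which copies methylation at replication, had 18.2 and 14.7 RPKM. Trim28, the corepressor that ZFP57 recruits to imprinted control regions, was at 121 and 106 RPKM, Mbd3 at 102 and 92.4 RPKM, and Ehmt2 at 46.4 and 42.0 RPKM. Methylation itself was not measured.

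In the IGF pathway, on which Igf2, Igf2r and Grb10 act, log2 ratios of the 6 binding proteins ran from -0.35 to 1.25, beside -0.23 to 0.12 for Igf1 and the receptors Igf1r and Insr. Of 15 genes, 1 lay above 1 and 0 below -1, with a median of 0.05. Over all 11463 entries that reached 1 RPKM in either library, 228 lay above 1 and 78 below -1. Igfbp5 was the one gene of the list above 1, at 7.06 RPKM in WT and 18.1 RPKM in KO MEFs, a log2 ratio of 1.25. Igfbp3 had 24.4 and 40.2 RPKM and Igfbp7 252 and 338 RPKM, whereas Igfbp4 had 232 and 181 RPKM. Irs1, an adaptor of the insulin and IGF1 receptors, was the one gene of the list lower by over 1.5-fold, at 12.7 and 7.08 RPKM, a log2 ratio of -0.76. Igf1r, the receptor through which IGF2 signals, had 31.4 and 26.7 RPKM, and Igf1, the other IGF ligand, 1.00 and 0.914 RPKM. By RPKM, Igf2 was thus the far more abundant ligand transcript in both libraries. Ligand protein was not measured.

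Of 11 relatives of Cdkn1c, Grb10, Plagl1 and Dlk1, none was past 1 or -1, thresholds that 0.977% and 0.334% of all entries passed. Cdkn1a, which encodes the p21 inhibitor, was at 391 RPKM in WT and 609 RPKM in KO MEFs, a log2 ratio of 0.64. Cdkn2a and Cdkn2b, inhibitors of CDK4 and CDK6, were at 51.2 and 32.1 RPKM and at 43.9 and 33.0 RPKM. Grb14, the relative of Grb10, had 19.5 and 25.8 RPKM, and so a ratio of the opposite sign (0.38). Dlk2, the relative of Dlk1, had 7.97 and 4.36 RPKM, a log2 ratio of -0.74 on the same side as Dlk1.

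Genes of cell division also differed between the libraries, as did some cell type markers. All 12 proliferation genes were lower in KO MEFs, with a median of -0.87 and a summed level of 210 RPKM in WT and 132 RPKM in KO MEFs. Of them, 4 lay below -1: Ccna2 at -1.13, Mki67 at -1.11, Top2a at -1.05 and Ccnb1 at -1.01. Over all 11463 entries that reached 1 RPKM in either library, 6973 had a ratio below 0 and 78 lay below -1. Pcna, Mcm2 and Mcm5, of the replication machinery, had log2 ratios of -0.22, -0.53 and -0.85. Their part in the lower values of Dlk1, Plagl1, Meg3, Grb10 and H19 was not tested.

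Of 8 macrophage markers, 5 reached 1 RPKM in either library, and these had log2 ratios from 0.63 for Mpeg1 to 1.26 for Lyz2, which was at 13.9 and 34.7 RPKM. Of these 5, Mpeg1 and Emr1 reached 1 RPKM in KO MEFs alone, so the filter favoured ratios above 0 for them. Cd68 and Cd14 also lay above 1, at 1.12 and 1.10, as did 228 of all 11463 entries that reached 1 RPKM in either library. The other 3 macrophage markers were below 1 RPKM in both libraries and too low to read. Ptprc, the common leukocyte antigen, was among them at 0.0449 and 0.0813 RPKM. The 8 summed to 20.0 RPKM in WT and 50.7 RPKM in KO MEFs. Fibroblast markers summed to 6800 RPKM in WT and 6751 RPKM in KO MEFs, with a median log2 ratio of 0.33, the highest being Vim at 3151 and 2448 RPKM. The 4 hepatic markers reached at most 0.0323 RPKM and the 4 erythroid markers were at 0 in both libraries. Skeletal muscle markers summed to 6.74 RPKM in WT and 3.47 RPKM in KO MEFs, of which Des made up 6.28 and 3.20 RPKM, and Myod1 was at 0.0139 and 0 RPKM. Endothelial and epithelial markers reached at most 1.01 and 1.02 RPKM. The highest cartilage marker was Col2a1 at 26.7 and 23.3 RPKM, and of the neural markers Tubb3 was at 35.9 and 36.1 RPKM and Nes at 31.4 and 11.6 RPKM. Of 4 adipocyte markers, Pparg was at 4.87 and 0.745 RPKM and Fabp4 at 16.3 and 28.9 RPKM. The part of these cell types in the members' values was not tested, and in such bulk cultures fewer cells of a type and less RNA per cell cannot be told apart.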

How the data were processed

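RNA of 1 WT and 1 NEAT1 KO MEF culture was sequenced from poly-A libraries prepared with a standard Illumina kit. The authors deposited 1 RPKM value per entry. The submitters' processing notes name CASAVA 1.8 and the builds mm10 and hg18, and the counting tool, the annotation and the treatment of reads shared by entries were not given in the sources used here. Entry positions matched RefSeq genes of GRCm38 (mm10) once 1 was added to each start, and positions are printed that way. An entry merges the accessions of a gene, 1 to 5 for the members.

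The number of reads per library was not stated. Among 1735 single-exon entries, low values were nearest to whole reads at totals of about 62.6 (WT) and 59.1 (KO), in units of 1e6 reads, yet just 30.6% of 245 and 29.6% of 223 values were then within 0.02 of a whole number. Whole reads were thus not recovered, no count test was run, and no counting interval or detection limit was computed.

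Log2 ratios of KO over WT used a pseudocount of 1 RPKM, with no further normalization and no filter. Groups came from the sample labels. With 1 library per group, lists were described by counts and medians beside all entries. Ratios were recomputed with 0.1 RPKM added in place of 1, without entries under 1 RPKM in both libraries, with the median of expressed entries set to 0, after quantile normalization, and with entries summed per symbol. Named genes are the members, Neat1, each gene of another list past 1 or -1 and the 3 of highest mean level, and imprinted neighbours of at least 1 RPKM in either library. Cell type and sex markers are instead given by range and count with the highest named. Others were picked after their values were seen. Likeness of pattern between genes was not computed over 2 libraries. The members and lists were chosen with earlier results of these data known. Promoter and miRNA sequences are from RefSeq (GRCm38.p6). Calculations were tested on simulated data. Software was Python 3.11.15 with pandas 2.3.3, numpy 2.4.6 and matplotlib 3.10.9.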

Additional observations from a re-analysis of the deposited data

How the results depend on the processing

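No paired analysis was possible because each genotype has 1 library, and for the same reason no replicate could be left out. The log2 ratios of the 10 imprinted genes moved by less than 0.58 under all 5 alternatives, and 0 genes passed 1 or -1 under any of them. Peg3 (-0.02 to 0.07) and Mest (-0.00 to 0.06) changed sign under centring and under quantile normalization. The count of imprinted genes lower by over 1.5-fold, a threshold taken after seeing the data, was 4 as reported, 3 after centring (without Grb10) and 5 after quantile normalization (with H19). Summing entries per symbol changed nothing, since each symbol stands on 1 entry. A pseudocount of 0.1 moved counts that include entries of low level: entries above 1 went from 228 to 500, below -1 from 78 to 540, above 2 from 52 to 118 and below -2 from 4 to 55. Entries higher by over 1.5-fold went from 553 to 1127 and lower from 593 to 1654, and other imprinted genes lower by over 1.5-fold went from 2 to 5. The remaining 113 of 120 recomputed values stayed within 1.5 times a count or 0.58 of a ratio.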
